A study of Mus musculus with 4 samples.

Results

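Mitochondrial ribosomal protein genes were taken as every gene whose symbol begins with Mrpl or Mrps followed by a number, the naming used for proteins of the large and the small subunit of the ribosome inside mitochondria. The gene table held 84 such genes. Of these, 78 had a probe on the array (49 Mrpl and 29 Mrps), out of 20284 genes named in all, and the other 6 were pseudogenes with no probe. The 78 genes lie on 17 chromosomes, 57 of them were read by 1 probe and 21 by 2 probes, and where there were 2 the brighter was used. Total RNA came from bone marrow of female C57BL6 mice aged 8 weeks, sorted into 4 fractions with 1 array each. Long-term HSC (LT-HSC, hematopoietic stem cells) were CD34-ckit+Sca1+Lineage-, short-term HSC (ST-HSC) were CD34+ckit+Sca1+Lineage-, progenitor cells were labelled ckit+Lineage-, and differentiated cells were Lineage+ (Lin+). The shared protocol text adds Sca1- and also names Lineage+ cells in the wording for progenitors, so the exact gate is uncertain, and the number of mice behind a fraction is not given in the sources used here. With 1 array per fraction no difference has a replicate check, and no test was made.

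Mammalian mitochondria make a small set of proteins themselves, all of them core parts of the respiratory chain or the ATP synthase, on ribosomes of their own. The RNA of these ribosomes is transcribed from mitochondrial DNA, while every protein of both subunits is encoded in the nucleus, made in the cytosol and imported. Many of these proteins descend from the bacterial ribosome, and others were added in mitochondria. In the blood system, quiescent stem cells are known for relying little on oxidative phosphorylation, and mitochondrial activity is known to increase as cells commit to a lineage.

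The arrays read the gates only in part as labelled. The level of a gene is given throughout as log2 of its probe's processed signal over the 75th percentile of its array, a scale on which different probes cannot be ranked against each other. Cd34 had levels of 7.34, 8.53, 7.51 and 3.26 in LT-HSC, ST-HSC, progenitors and Lin+ cells, and was lowest in Lin+ cells, as was Kit (1.67, against 4.42 to 5.63 elsewhere). Cd34 was 1.19 higher in ST-HSC than in LT-HSC, but LT-HSC, sorted as CD34-, still stood near progenitors. Ly6a, the gene of Sca-1, was at 4.51 in Lin+ cells, against 4.52 in LT-HSC and 2.28 in progenitors, so Lin+ cells did not lack it. All 5 erythroid, all 5 neutrophil and all 4 B cell markers were at least 2-fold higher in Lin+ cells than in LT-HSC, so Lin+ cells held markers of several lineages. The 75th percentile stood between 137 and 230 intensity units, between 40.9% and 45.9% of probes were well above background, and 11667 to 12470 genes were detected per array.

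Of the 78 genes, 77 were well above background on all 4 arrays. The exception was Mrpl21, a large subunit protein, whose single probe was not well above background on any array and gives no comparison. Most of the other 77 shared 1 pattern, with the highest signal in progenitors and the lowest in Lin+ cells. The median member level was 4.26 (LT-HSC), 4.56 (ST-HSC), 5.39 (progenitors) and 3.90 (Lin+ cells). In intensity units before scaling, the median member read 3678 (LT-HSC), 5119 (ST-HSC), 5776 (progenitors) and 3444 (Lin+ cells), which is the same order.

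Progenitors held the highest of the 4 levels for 74 of the 77 genes, against 40.8% of all genes detected on every array. That count was 51 when arrays were scaled on spike-in RNA, the lowest of the alternative settings. The exceptions were Mrpl39, Mrpl50 and Mrps31, whose highest level was in ST-HSC. Lin+ cells held the lowest level for 64 of 77 genes (47.8% of all genes), and 61 of 77 combined both, against 24.5% of all genes. LT-HSC were lowest for the remaining 13, which were Mrpl18, Mrpl20, Mrpl28, Mrpl33, Mrpl37, Mrpl43, Mrpl49, Mrpl51, Mrpl53, Mrpl57, Mrpl58, Mrps18c and Mrps21. Of these 13 names, 11 carry Mrpl, as do 48 of the 77 genes. Lin+ cells exceeded LT-HSC by only 0.02 for Mrpl49 and 0.18 for Mrps18c. With spike-in scaling, 49 of 77 genes were lower in Lin+ cells than in LT-HSC, against 64 as reported. Mrps11 (-0.0008) and Mrpl10 (-0.008) were nearly level between Lin+ cells and LT-HSC. In such bulk samples, fewer cells of a type and less RNA per cell cannot be told apart.

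**Figure D1:**
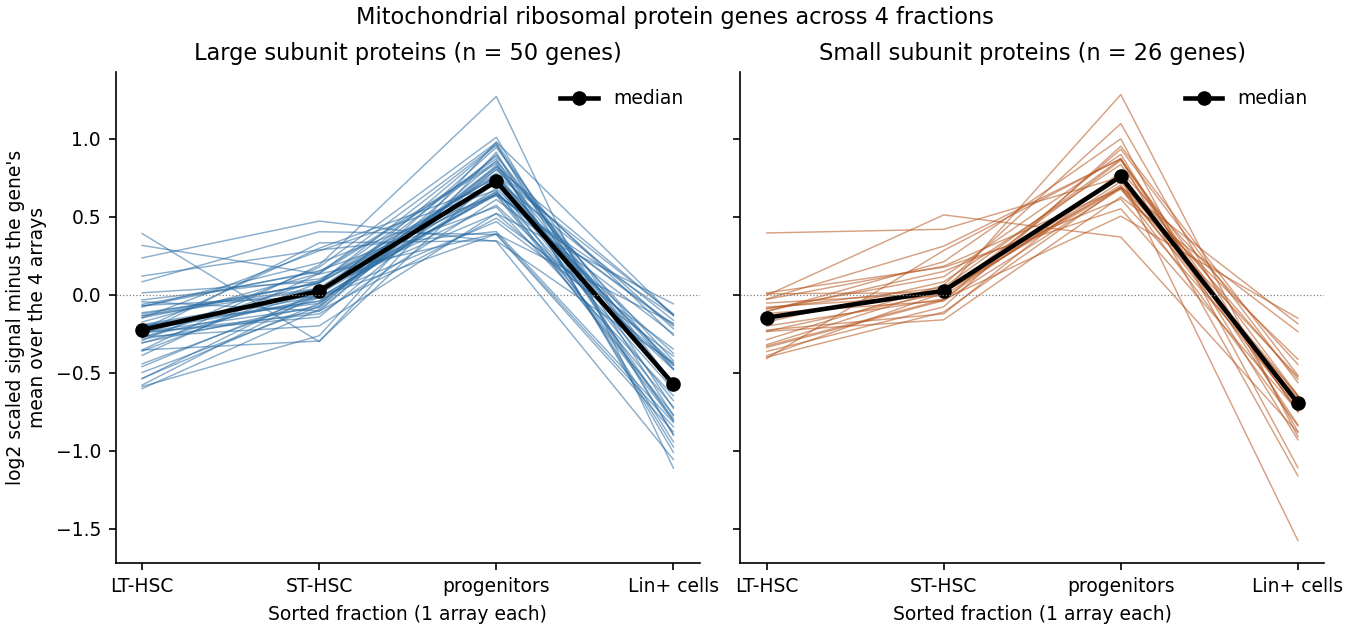
Level of each mitochondrial ribosomal protein gene in the 4 sorted fractions (x axis), drawn as log2 scaled signal minus the gene's own mean over the 4 arrays (y axis); thin lines are genes, the black line is their median, and large and small subunit proteins have a panel each (Mrps36 is not drawn). Nearly every line peaks in progenitors, and 64 of the 77 genes are lowest in Lin+ cells.

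Because these genes shared a pattern, their promoters were compared for short motifs. RefSeq windows (build GRCm38.p6) running from 250 bases before to 50 after a transcription start were found for 69 of the 78 genes, 75 windows in all, and both strands were searched. The ETS motif CCGGAAGT, bound by the ETS family that includes the GABP factor, was present in 16.0% of member windows and in 5.15% of all 21263 windows. The NRF1 motif CGCATGCG was in 9.33% of member windows and 2.52% of all. The YY1 motif AAGATGGCG was in 8 of the 75 member windows and in 1.83% of all. The E-box CACGTG, the site of Myc and its relatives, was in 9.33% of member windows and 7.84% of all. Its 7 member windows belong to 5 genes, since Mrpl2 has overlapping windows. Counted by genes, it was in 7.25% of members and 8.91% of all. Among 10823 genes with a window that were detected on at least 1 array, these shares were higher than over all genes for each motif, at 8.16% (ETS), 3.91% (NRF1), 3.25% (YY1) and 11.3% (E-box) of genes. Over the 69 member genes they were 17.4% (ETS), 10.1% (NRF1), 11.6% (YY1) and 7.25% (E-box), so the E-box was less frequent in members than in detected genes and the other 3 more frequent, with no test made. Member windows were also rich in CG dinucleotides, with a median of 21 per window against 13 over all windows. No motif contains another, and a match describes the sequence only.

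Below, 4 windows are printed because their genes carry the results: Mrps18b had the highest difference of progenitors over ST-HSC, Mrpl12 the lowest of Lin+ cells against progenitors, Mrps27 holds 2 motifs, and Mrps11 shares its start region with Mrpl46. Each runs 5′ to 3′ on the gene's strand, and capitals mark a motif on either strand. The windows are Mrps18b at chr17:35916391-35916690 (minus strand, NRF1), Mrps27 at chr13:99344536-99344835 (plus strand, ETS on the other strand, then YY1), Mrps11 at chr7:78782881-78783180 (plus strand, YY1 on the other strand) and Mrpl12 at chr11:120484387-120484686 (plus strand, none of the 4 motifs).
Mrps18b: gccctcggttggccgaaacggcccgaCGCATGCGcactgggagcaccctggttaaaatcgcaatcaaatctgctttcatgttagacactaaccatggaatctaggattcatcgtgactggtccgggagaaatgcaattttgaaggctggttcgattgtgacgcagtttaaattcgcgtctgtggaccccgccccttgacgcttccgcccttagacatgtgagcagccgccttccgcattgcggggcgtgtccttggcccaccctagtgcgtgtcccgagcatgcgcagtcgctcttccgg
Mrps27: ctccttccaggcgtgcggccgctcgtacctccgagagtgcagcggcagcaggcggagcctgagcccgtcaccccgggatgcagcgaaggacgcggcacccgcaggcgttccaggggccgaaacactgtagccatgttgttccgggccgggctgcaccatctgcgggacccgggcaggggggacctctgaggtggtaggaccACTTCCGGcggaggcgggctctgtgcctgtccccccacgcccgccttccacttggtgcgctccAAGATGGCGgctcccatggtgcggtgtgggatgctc
Mrps11: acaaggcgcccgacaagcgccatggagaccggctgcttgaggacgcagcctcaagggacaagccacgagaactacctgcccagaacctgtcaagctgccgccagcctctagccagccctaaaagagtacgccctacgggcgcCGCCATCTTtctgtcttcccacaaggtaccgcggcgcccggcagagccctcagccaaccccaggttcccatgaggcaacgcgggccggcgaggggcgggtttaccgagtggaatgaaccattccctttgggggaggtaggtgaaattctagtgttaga
Mrpl12: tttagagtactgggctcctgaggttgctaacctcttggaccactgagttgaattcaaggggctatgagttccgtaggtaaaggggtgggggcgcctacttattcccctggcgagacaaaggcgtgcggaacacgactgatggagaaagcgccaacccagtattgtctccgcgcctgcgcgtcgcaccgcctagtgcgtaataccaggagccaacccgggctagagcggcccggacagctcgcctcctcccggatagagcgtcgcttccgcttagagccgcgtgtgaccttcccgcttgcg

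The first comparison asks what differs between short-term and long-term stem cells. The family was slightly but widely higher in ST-HSC. The median log2 difference, ST-HSC minus LT-HSC, was 0.24 over 77 genes, ranging between -0.69 and 0.69, and 74 of 77 were above 0, against 52.1% of all genes compared; the median stayed above 0 under all 10 alternative settings. None of the 77 reached 2-fold in either direction, while 5.81% of all genes were at least 2-fold higher. A single gene's difference had a median Feature Extraction spot error of 0.20, which is the software's estimate for spots and not spread between samples. For probes with 10 spots, the SD over spots was smaller, 0.07 on the LT-HSC array and 0.06 on the ST-HSC array. A member's median error on each of these arrays was 0.14. Most single members differed by little more than the error of 0.20. The SD over the 77 genes was also 0.20, against 0.82 over all genes compared. Relative to the median gene, 72 of 77 were above it, where 49.5% of all genes were.

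The largest difference was that of Mrps22, a small subunit protein added in mitochondria whose human gene is known from inherited mitochondrial disease. Its levels were 2.86 in ST-HSC and 2.17 in LT-HSC, a difference of 0.69 ± 0.20 (spot error). Mrpl1 and Mrpl33, both of bacterial type, followed with differences of 0.58 each. Mrpl37 (0.57), Mrpl12 (0.54) and Mrpl16 (0.52) completed the 6 highest.

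Mrpl52, a large subunit protein with no bacterial counterpart, ran against the family. Its levels were 6.17 in ST-HSC and 6.86 in LT-HSC, a difference of -0.69 ± 0.20, in the opposite direction to 74 of the other genes. Only Mrpl35 (-0.18) and Mrpl32 (-0.06) were also below 0, both within the spot error. Mrps5 (0.01), Mrps6 (0.02) and Mrpl9 (0.06) were the next lowest. All 26 small subunit genes were above 0, and 47 of 50 large subunit genes were.

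Cell cycle genes and some lineage markers differed far more between the same arrays. All 5 proliferation markers exceeded LT-HSC by at least 2-fold in ST-HSC, with a median difference of 2.62. Mki67, a marker of cycling cells, had levels of 4.89 in ST-HSC and 1.51 in LT-HSC. Granulocyte-monocyte progenitor markers went the same way, all 4 by 2-fold or more (median 3.18). Megakaryocyte markers went the other way, all 4 by 2-fold or more (median -2.68), as did 2 of 3 erythroid markers compared. Neutrophil markers, with 4 compared, did not reach 2-fold in either direction. The part of these cell cycle and lineage markers in the members' difference was not tested.

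The second comparison sets progenitors against ST-HSC. The family was higher in progenitors, with a median log2 difference of 0.72 (range -0.14 to 1.27), and 74 of 77 genes were above 0, against 58.3% of all genes. The direction of the median held under all 10 alternatives, but its size did not: spike-in scaling brought it to 0.10, with 52 of 77 above 0. On this scale the median gene detected on both arrays was itself 0.21 higher in progenitors. Relative to that gene the members' median was 0.52, and 72 of 77 lay above it, where 48.1% of all genes did. Lineage markers differed between the same arrays: all 5 erythroid (median 5.52), all 4 megakaryocyte (median 2.21) and all 4 granulocyte-monocyte progenitor markers (median 2.18) were at least 2-fold higher in progenitors. Their part in the members' difference was not tested.

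Of the 77 genes, 9 were at least 2-fold higher in progenitors, or 11.7%, close to the 10.0% of all genes that were. With the median gene at 0 the count was 3 of 77, against 6.85% of all genes. On the scale used here 74 of 77 members were above 0 and most differed by less than 2-fold, while spike-in scaling left 52 above 0. The 9 were Mrps18b, Mrpl20, Mrpl52, Mrpl12, Mrpl57, Mrps28, Mrps7, Mrps36 and Mrpl55. Of the 3 among them with 2 probes, only Mrps18b passed 2-fold on both, and the other probes gave 0.36 for Mrps7 and 0.83 for Mrps36.

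Mrps18b, whose window with the NRF1 motif is printed above, had levels of 6.56 in progenitors and 5.29 in ST-HSC, a difference of 1.27 ± 0.20. Its other probe gave the same difference, 1.27. Mrpl20, known from bacteria as an early assembly protein of the large subunit, had levels of 7.52 in progenitors and 6.27 in ST-HSC, a difference of 1.24 ± 0.20. Mrpl52, the gene that was lower in ST-HSC than in LT-HSC, had levels of 7.39 in progenitors and 6.17 in ST-HSC, a difference of 1.21 ± 0.20. Mrpl12, the counterpart of the bacterial stalk protein that recruits translation factors, differed by 1.08, Mrpl57 by 1.07 and Mrps28 by 1.03. Mrps36, which carries the family name but is now known as a component of the alpha-ketoglutarate dehydrogenase complex, differed by 1.02, so a gene of another complex lay within the range of the ribosomal ones.

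At the other end, Mrps31 (-0.14), Mrpl50 (-0.13), Mrpl39 (-0.02) and Mrpl1 (0.01) were level between progenitors and ST-HSC within the spot error. Mrpl24 (0.12) and Mrpl35 (0.26) were next. Mrpl50 depends on the probe, since its other probe gave 0.87.

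The third comparison sets differentiated Lin+ cells against progenitors and gave the largest differences. All 77 genes were lower in Lin+ cells, against 60.0% of all genes, with a median log2 difference of -1.33 and a range of -2.38 to -0.57. The median was below 0 under all 10 alternatives, and under spike-in scaling, where it was -0.73, 2 of 77 genes were above 0. At least 2-fold lower were 61 of 77 genes, against 26.4% of all genes compared. Between the same arrays all 5 neutrophil markers (median 8.23) and all 4 B cell markers (median 5.55) were at least 2-fold higher in Lin+ cells. All 4 megakaryocyte markers (median -4.17) and all 4 granulocyte-monocyte progenitor markers (median -1.32) were at least 2-fold lower. The part of these markers in the members' difference was not tested.

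The median gene detected on both arrays was 0.42 lower in Lin+ cells on this scale (-0.42). With that gene set to 0, the members' median was -0.91, all 77 genes were below it (46.9% of all genes were), and 28 of 77 were at least 2-fold lower, against 14.1% of all genes. Such a shift changes the count but not the order of the members. The SD over members was 0.40, larger than the spot error of 0.20, so members differed among themselves by more than that error.

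Mrpl12, whose window holds none of the 4 motifs, had the lowest difference. Its levels were 4.59 in Lin+ cells and 6.98 in progenitors, a difference of -2.38 ± 0.20, or 5.22-fold lower. Mrps6, a small subunit protein of bacterial type, had levels of 2.21 in Lin+ cells and 4.54 in progenitors, a difference of -2.33 ± 0.20. Mrps18b had levels of 4.37 in Lin+ cells and 6.56 in progenitors, a difference of -2.19 ± 0.20 (-1.70 on its other probe). These 3 genes reach their low values in different ways: Mrpl12 and Mrps18b were also among the highest in progenitors over ST-HSC, while Mrps6 stood 0.33 higher there.

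Mrps25, a mitochondria-specific protein of the small subunit, differed by -2.11 on its brighter probe. Its other probe gave 0.22, so this gene's call rests on which probe is read. Mrps2 (-2.03) and Mrps28 (-1.97) completed the 6 lowest. Of these, 5 are small subunit genes, where 26 small and 50 large subunit genes were compared. Mrps27, a pentatricopeptide repeat protein whose window holds an ETS and a YY1 motif, had levels of -0.12 in Lin+ cells and 1.71 in progenitors, a difference of -1.83 ± 0.21.

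The smallest differences were those of Mrpl49 (-0.57), Mrpl53 (-0.58), Mrps18c (-0.65), Mrpl37 (-0.77), Mrpl1 (-0.78) and Mrpl43 (-0.84). Of these 6, 5 are large subunit genes, where 50 large and 26 small subunit genes were compared. Mrpl49 had levels of 2.71 in Lin+ cells and 3.28 in progenitors, which still exceeds the spot error of 0.20.

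**Figure D2:**
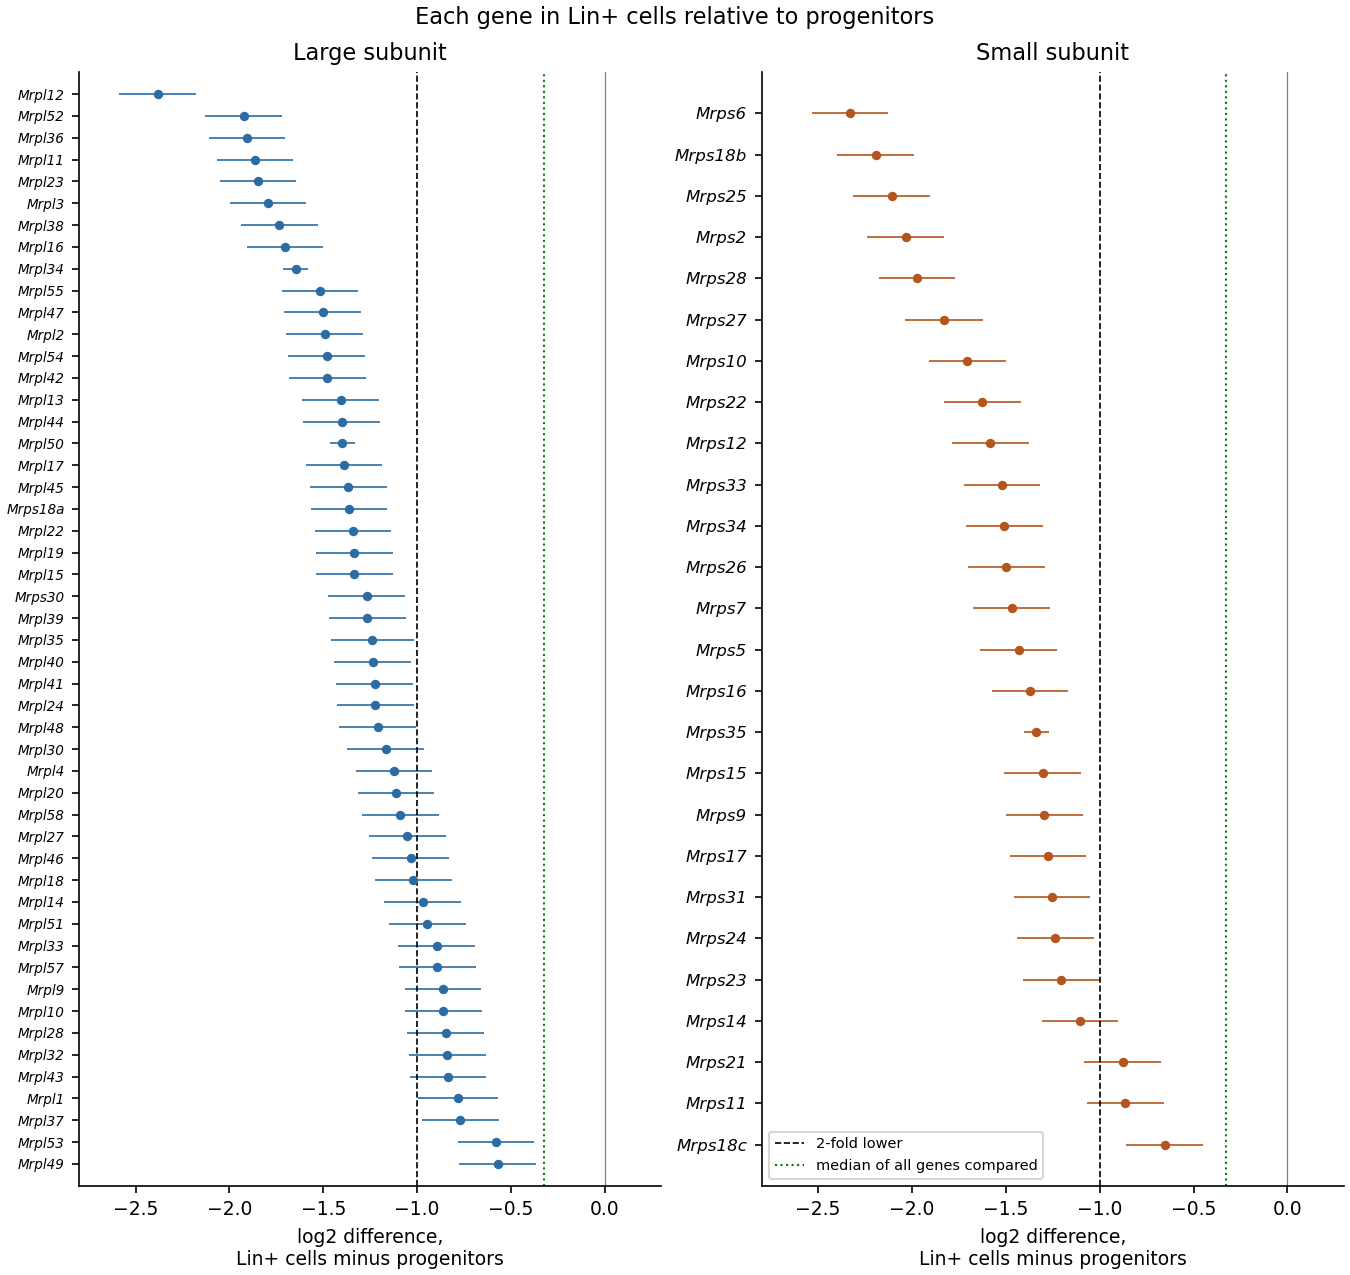
Log2 difference of each gene in Lin+ cells minus progenitors (x axis), with bars for the Feature Extraction spot error, for large subunit (left) and small subunit (right) genes, ordered by size; the dashed line is 2-fold lower and the dotted line the median of all genes compared. All points lie left of the dotted line, and 37 of 50 large and 23 of 26 small subunit genes lie past the dashed line.

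By structural class, 37 of 50 large subunit genes passed 2-fold lower for Lin+ cells minus progenitors, with a median of -1.25, and 23 of 26 small subunit genes did, with a median of -1.45. Mrps18a and Mrps30 are counted as large subunit genes here, where mammalian structures place them in spite of their names. All 10 small subunit proteins classed as mitochondria-specific, Mrps18b among them, were lower by at least 2-fold on the brighter probe, with a median of -1.51. The other probes of Mrps25 (0.22) and Mrps23 (-0.59) did not reach 2-fold lower. Proteins of bacterial type (35 of 45, median -1.33) and mitochondria-specific proteins (25 of 31, median -1.34) had nearly the same medians. The differences between classes were not tested.

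The 3 relatives of the bacterial S18 protein differed by unlike amounts. Mrps18a and Mrps18b are classed as mitochondria-specific because they are further copies beside Mrps18c, which is counted as the bacterial-type protein. Mrps18b differed by -2.19 between Lin+ cells and progenitors, Mrps18a by -1.36 and Mrps18c by -0.65, each with a spot error of 0.20. The other probe of Mrps18b gave -1.70, nearer to Mrps18a. Mrps18c was 0.18 higher in Lin+ cells than in LT-HSC, within the error, while Mrps18a was at -0.36 and Mrps18b at -0.52. On its other probe Mrps18b was at -0.19, so its order against Mrps18a depends on the probe there.

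The fourth comparison, Lin+ cells against LT-HSC, does not use the progenitor array. Here the family was only a little lower, with a median log2 difference of -0.35 (range -1.97 to 0.48), and 64 of 77 genes were below 0, against 55.5% of all genes; under spike-in scaling the median was -0.06 and 28 of 77 were above 0. At least 2-fold lower were 6 genes, or 7.79%, fewer than the 23.2% of all genes that were. Relative to the median gene, 54 of 77 were below it (47.8% of all genes), with a members' median of -0.14. On this scale most of the family thus stood near its LT-HSC level in Lin+ cells, with the SD over members at 0.46.

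The 6 were Mrps6, Mrpl52, Mrpl50, Mrpl35, Mrps2 and Mrps25. Mrps6 had levels of 2.21 in Lin+ cells and 4.18 in LT-HSC, a difference of -1.97 ± 0.20, well apart from the next gene. Mrpl52 had levels of 5.46 in Lin+ cells and 6.86 in LT-HSC, a difference of -1.40 ± 0.20. Mrpl50 differed by -1.29 on its brighter probe and by -0.67 on the other. Mrpl35 (-1.16) and Mrps2 (-1.13) followed, and Mrps25 lay just past 2-fold. The other probe of Mrps2 gave -0.40 and that of Mrps25 -0.07, so none of the 3 calls on genes with 2 probes held on the other probe.

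The 6 highest in Lin+ cells over LT-HSC were Mrpl51 (0.48), Mrpl20 (0.45), Mrpl33 (0.42), Mrpl37 (0.41), Mrpl18 (0.32) and Mrpl28 (0.26), all large subunit genes. Mrpl33 also had the strongest probe signal of the family on every array, which does not rank transcripts, with levels of 6.97, 7.56, 8.28 and 7.39 in LT-HSC, ST-HSC, progenitors and Lin+ cells. The probes of Mrpl35 and Mrpl1 gave the weakest signals above background. Over classes, 11 of 50 large subunit genes and 2 of 26 small subunit genes were above 0, with medians of -0.33 for the large and -0.56 for the small subunit.

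The comparisons above share arrays, the progenitor array in particular, so a gene's higher value in progenitors and its lower value in Lin+ cells are not separate evidence. Genes with 2 probes give a check on the array itself. Over these 21 genes the 2 probes had the same sign in 21 cases for ST-HSC minus LT-HSC, 18 for progenitors minus ST-HSC, 19 for Lin+ cells minus progenitors and 18 for Lin+ cells minus LT-HSC. Their median absolute gap was between 0.11 and 0.24. For Lin+ cells minus progenitors, 18 of the 21 brighter probes and 14 of the other probes were at least 2-fold lower. Besides Mrps25, the probes of Mrpl41 disagreed, at -1.23 and 0.09 for that comparison and at 0.95 and -0.28 for progenitors minus ST-HSC.

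**Figure D3:**
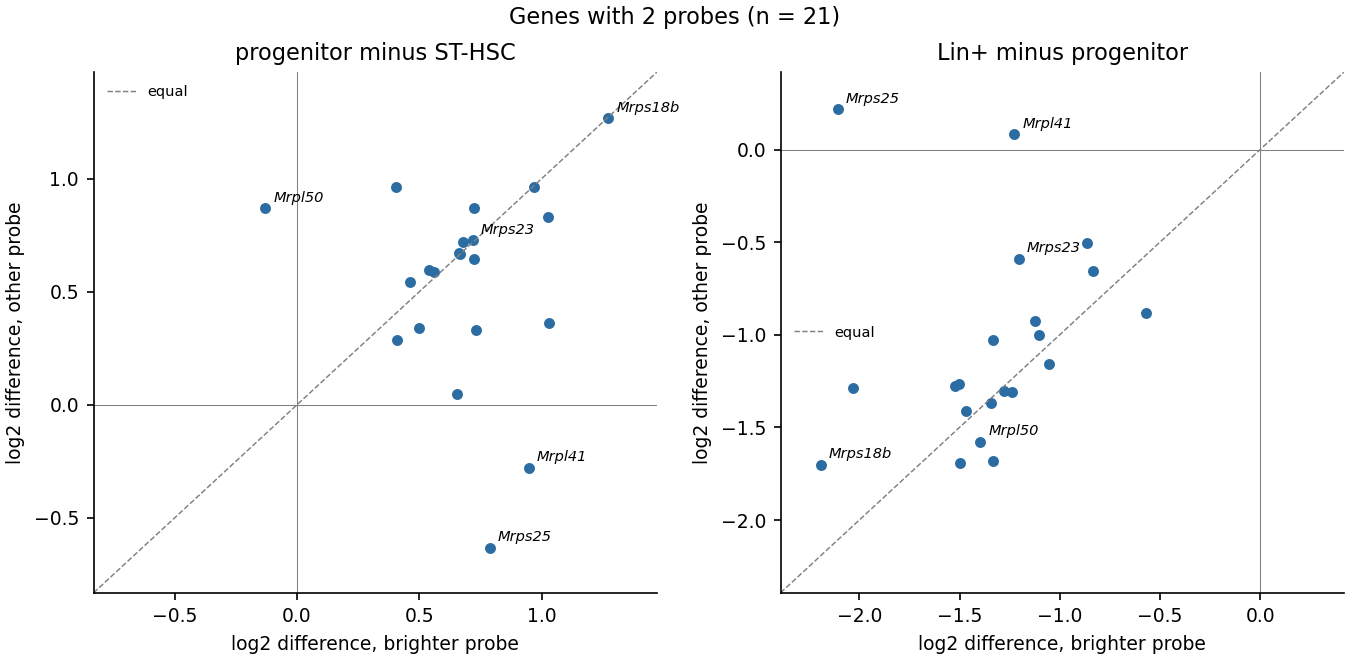
Log2 difference by the brighter probe (x axis) and by the other probe (y axis) for the 21 genes with 2 probes, in 2 comparisons; the dashed line marks equal values. Most points lie near the line, while Mrps25 and Mrpl41 leave it in both panels and Mrpl50 in the left one.

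Members are short genes, and the progenitor comparisons changed with gene size over the whole array. The median genomic span was 7.69 kb for members and 17.99 kb for all named genes. Over all genes, the median of progenitors minus ST-HSC was 0.42 in the shortest quintile by span and -0.15 in the longest. For Lin+ cells minus progenitors it was -0.56 in the shortest quintile and 0.00 in the longest. The shortest quintile held 34 of the 77 members. Within every quintile the members' median lay further out than that of all genes, by 0.32 to 0.93 for progenitors minus ST-HSC and by -1.83 to -0.76 for Lin+ cells minus progenitors, with 3 members in the longest quintile. Measured against genes of the same quintile, the family medians were 0.22 (ST-HSC minus LT-HSC), 0.40 (progenitors minus ST-HSC), -0.82 (Lin+ cells minus progenitors) and -0.18 (Lin+ cells minus LT-HSC). On that measure 1 of 77 genes was at least 2-fold higher in progenitors than in ST-HSC, against 7.33% of all genes, and 22 of 77 were at least 2-fold lower in Lin+ than in progenitor cells, against 15.3% of all genes. The source of the span trend was not tested.

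**Figure D4:**
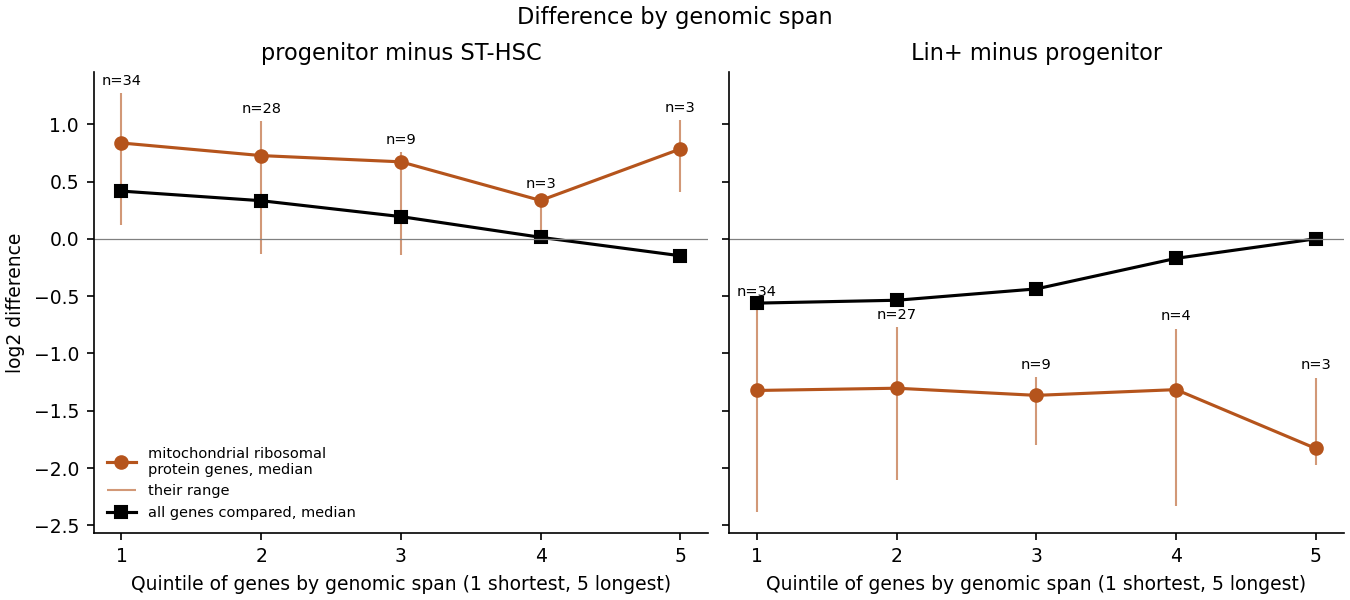
Median log2 difference by quintile of genomic span (x axis, shortest to longest) for mitochondrial ribosomal protein genes (circles, with their range and number) and for all genes compared (squares). Members lie above all genes for progenitors minus ST-HSC and below them for Lin+ cells minus progenitors in each quintile.

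Other genes of the same machinery were also lower in Lin+ cells than in progenitors. The 5 mitoribosome proteins with other names had a median of -1.31 for Lin+ cells minus progenitors. Of these, 4 of 5 were at least 2-fold lower, against 26.4% of all genes compared. They include Dap3, a GTP-binding protein of the small subunit, with levels of 5.55 in Lin+ cells and 6.86 in progenitors. The exception was Aurkaip1, at -0.57.

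Of 26 factors that build or modify the mitoribosome, 17 were lower by 2-fold or more in Lin+ cells, relative to progenitors, with a median of -1.07. Over all genes compared, 26.4% were at least 2-fold lower, and this share applies to each list given here. C1qbp, a mitochondrial matrix protein needed for translation there, had levels of 4.97 in Lin+ cells and 7.44 in progenitors. Translation factors were at least 2-fold lower for 11 of 15 (median -1.25). Tufm, the elongation factor that brings aminoacyl-tRNA to the mitoribosome, differed by -1.97. Mitochondrial aminoacyl-tRNA synthetases were at least 2-fold lower for 15 of 19 (median -1.47), with Vars2 at -2.04. Genes that transcribe or replicate mitochondrial DNA were at least 2-fold lower for 8 of 10 (median -1.48), with the topoisomerase Top1mt at -2.39.

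Import machinery, which brings the ribosomal proteins into the organelle, was lower in Lin+ cells than in progenitors for all 26 genes compared. At least 2-fold lower were 22 of 26 (median -1.44). Import machinery was also higher in progenitors than in ST-HSC by at least 2-fold for 7 of 26, against 10.0% of all genes, with a median of 0.80. With the median gene at 0, 1 of 26 was at least 2-fold higher, against 6.85% of all genes. Nuclear regulators of mitochondrial biogenesis had a smaller median for Lin+ cells minus progenitors, -0.49. Of 8 compared, 3 were at least 2-fold lower, against 26.4% of all genes compared. Besides Myc these were Pprc1 (-1.34) and Ppargc1b (-1.60 or lower, since it was not well above background in Lin+ cells). Esrra (-0.52), Yy1 (-0.46) and Gabpb1 (-0.33) were lower by less than 2-fold. Myc had levels of 1.41 in Lin+ cells and 4.42 in progenitors, a difference of -3.01 ± 0.14, whereas Nrf1, the factor named in the NRF1 motif, was at 0.05 ± 0.20 and Gabpa, which encodes the DNA-binding subunit of GABP, at -0.02 ± 0.21. Ppargc1a, a coactivator of this programme in oxidative tissues, was not well above background on any array.

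Genes of the cytosolic ribosome and of oxidative phosphorylation give a further scale. For Lin+ cells minus progenitors the medians were -1.33 for mitochondrial ribosomal proteins, -1.25 for cytosolic ribosomal proteins (73 of 81 at least 2-fold lower) and -1.13 for oxidative phosphorylation subunits (52 of 76). Over all genes compared, 26.4% were at least 2-fold lower. The lists parted in other comparisons. Between ST-HSC and LT-HSC, 74 of 77 mitochondrial ribosomal protein genes and 70 of 76 oxidative phosphorylation genes were above 0, against 19 of 81 cytosolic ribosomal protein genes, whose median was -0.06. In Lin+ cells against LT-HSC, the medians were -0.35 for mitochondrial ribosomal proteins, -0.79 for cytosolic ribosomal proteins and -0.09 for oxidative phosphorylation. These differences between lists were not tested.

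**Figure D5:**
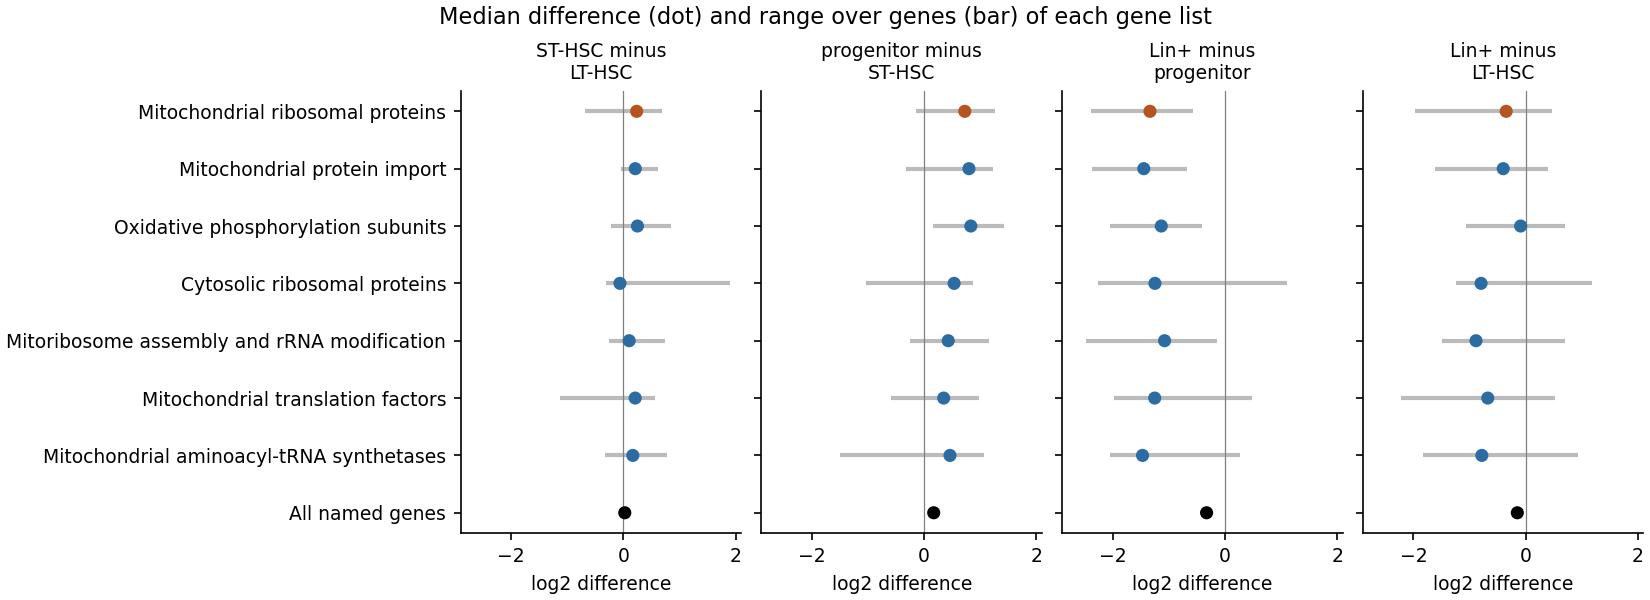
Median log2 difference of each gene list (dots) with the range over its genes (grey bars) in the 4 comparisons; the black dot is the median of all genes compared. Mitochondrial ribosomal proteins lie close to import and oxidative phosphorylation genes for ST-HSC minus LT-HSC and for progenitors minus ST-HSC. For ST-HSC minus LT-HSC, translation factors lie about as close as import genes (medians of 0.21 each). For Lin+ cells minus progenitors the family median is -1.33, with translation factors and cytosolic ribosomal proteins at -1.25 each. Import (-1.44) and oxidative phosphorylation (-1.13) lie further off in that comparison, where every list lies left of all genes.

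Proliferation markers had the family's direction in ST-HSC against LT-HSC, where all 5 were above 0, but not in the comparisons with progenitors. For Lin+ cells minus progenitors all 77 members were below 0, while all 5 markers were above 0, with a median of 1.83. For progenitors minus ST-HSC 74 of 77 members were above 0, while 1 of 5 markers was, with a median of -0.91.

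Many members share a start region with a gene on the other strand. A neighbour that starts within 1000 bases and runs the other way was found for 24 of 69 genes, or 34.8%, against 8.48% of all genes with a start. Mrpl46 and Mrps11 start 42 bases apart and run away from each other, in the window printed for Mrps11. Mrpl46 differed by -1.04 and Mrps11 by -0.86 for Lin+ cells minus progenitors, so both were lower. Other partners belong to mitochondria too, such as Twnk, the helicase of mitochondrial DNA, opposite Mrpl43, and Sars2, a mitochondrial seryl-tRNA synthetase, opposite Mrps12. Mrpl43 differed by -0.84 and Twnk by -1.46 for Lin+ cells minus progenitors. Mrps12 differed by -1.58 and Sars2 by -1.31.

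Partners did not match their members throughout. Of 21 partners outside the family that could be compared, 8 passed 2-fold lower for Lin+ cells minus progenitors and 18 were below 0, with a median of -0.76. Over all genes with such a neighbour, 31.9% were at least 2-fold lower and the median was -0.62. Mrpl57 was at -0.89, while Ska3, a mitotic spindle gene 76 bases away, was at 0.09. Mrpl50 was at -1.40, while Zfp189 opposite it was at -0.15.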

How the data were processed

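RNA of 4 sorted fractions was hybridised in 1 colour (Cy3) to Agilent arrays of 1 design, 4 arrays on 1 slide and 1 scan, so slide and scan give no batch to compare; the days of sorting, extraction and amplification are not given in the sources used here. RNA was amplified with spike-in controls, per the labels' protocols. Per the file headers, Feature Extraction 10.7.1.1 made the intensity values: the deposited processed signal is background-subtracted, and each spot has an error. The authors' deposited value table is a ratio of that signal to 1 constant per array. The processed signal was divided by the array's 75th percentile over 55678 non-control probes and put on a log2 scale, after dropping spots flagged as outliers and averaging spots of a probe. Probes were named through unversioned RefSeq accessions (26762 probes, 48.07%, 20284 genes), and the brightest probe per gene was kept. A value not well above background was set to at least the array's lowest well-above-background value, and such differences are bounds; calls were at least 2-fold. Full values were given for the 6 highest and 6 lowest differences per comparison, the brightest and dimmest members, members below background or with disagreeing probes, and the Mrps18 relatives; other lists show up to 4 members. The steps of comparing arrays, bounding dim values and calling were tested on simulated data, while the scaling and the choice of probe were not. The members and lists were chosen with earlier results of these data known. Tools were Python 3.11.15, pandas 2.3.3, numpy 2.4.6, matplotlib 3.10.9, R 4.3.3 and limma 3.58.1 (normexp). The 10 alternatives changed the scaling, the background correction, the probe rule, the filter, the input table or the genes compared with. The precision is limited by 1 array per fraction.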

Additional observations from a re-analysis of the deposited data

How the results depend on the processing

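No family median and no 2-fold call on a member changed sign under the 10 alternatives, but smaller member differences did: with spike-in scaling 52 of 77 were above 0 for progenitors minus ST-HSC (74 as reported), 2 for Lin+ cells minus progenitors (0 as reported) and 28 for Lin+ cells minus LT-HSC (13 as reported). In all, 95 family values stayed within the spot error or within 1.5 times the count, while 31 moved further. For ST-HSC minus LT-HSC, spike-in scaling gave a median of 0.54 and 1 gene at least 2-fold higher. For progenitors minus ST-HSC the median and the count of higher genes were 0.47 and 1 with the percentile taken over probes detected on every array, 0.10 and 0 with spike-in scaling, 0.52 and 3 with the median gene at 0, 0.33 and 0 with quantile normalization, and 0.40 and 1 within quintiles of span; normexp gave 3 genes. For Lin+ cells minus progenitors the median and the count of lower genes were -0.94 and 31 with the detected percentile, -0.73 and 17 with spike-ins, -0.91 and 28 with the median gene at 0, -0.93 and 29 with quantiles, and -0.82 and 22 within quintiles of span; normexp gave a median of -1.11. For Lin+ cells minus LT-HSC, spike-ins gave a median of -0.058 and 3 lower genes, the median gene at 0 gave -0.14 and 3, and normexp, the mean of all probes and quintiles of span gave 3 each. Scaling also moved the share of higher calls among all genes' 2-fold calls: for Lin+ cells minus progenitors it was 35.4% as reported, 58.5% with the detected percentile, 71.0% with spike-ins, 60.2% with the median gene at 0 and 45.6% with quantiles; for progenitors minus ST-HSC 49.7%, 29.7%, 13.8%, 33.1% and 38.9% in that order; with spike-ins it was 62.9% for ST-HSC minus LT-HSC (39.2% as reported) and 55.2% for Lin+ cells minus LT-HSC (41.0% as reported, 51.2% with the median gene at 0). Which scaling is nearer to RNA per cell was not tested. Normexp used median signals, since mean signals were not among the columns used here. No paired analysis was possible because every fraction has 1 array, all numbered 1, and for the same reason no replicate could be left out. Mrpl21 lay below background on all arrays, so its level is limited only by that background.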
